A study of Mus musculus with 8 samples.

Results

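The genes described here are the FoxO transcription factors Foxo1, Foxo3 and Foxo4, the muscle genes Klhl38, Fbxo32 and Trim63, and the fasting and stress responsive genes Gabarapl1, Ddit4 and Klf15. They are 9 of the 38293 genes counted in left ventricles of mice. Their rows were found by Ensembl identifier through GENCODE M21 symbols, each symbol had 1 row, and all 9 had enough counts to be tested. The set was chosen by the roles of its genes and by their log2 fold changes between knockout and wild-type hearts, since Klhl38 and Fbxo32 stood high in that contrast. The values of the 9 genes in that contrast are therefore given as a description and support nothing.

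The study set 4 left ventricles of Nbdy knockout (KO) mice, in which the gene is also named mORF4, against 4 of wild-type (WT) mice. All 8 mice were untreated C57BL/6 males, 8 weeks old, and each heart gave 1 poly(A) RNA library. How the allele was made, the litter, any batch and the time of day are not in the labels. The Nbdy microprotein is known as a partner of the enzymes that remove the cap of mRNAs.

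FoxO factors are forkhead proteins that insulin and growth factor signalling keeps out of the nucleus through phosphorylation by Akt. When that signal falls, as in fasting or disuse, they enter the nucleus and turn on genes of protein breakdown and autophagy, which has been studied most in atrophying skeletal muscle. In the heart the same ligases take part in the turnover of sarcomere and signalling proteins.

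The promoters of 6 of the 9 genes were in the RefSeq table used (GRCm38.p6); Klhl38, Fbxo32 and Foxo4 were not matched. Each runs from 250 bases before to 50 bases after the start site. They were searched on both strands for the forkhead motifs GTAAACA and ATAAACA, the letters FoxO factors are known to bind, and for the E-box CACGTG, which clock and glucose-sensing factors are known to bind. The motifs were chosen after the promoters had been looked at, and none of them overlaps another in these windows. The 3 promoters with a match are shown, 5′ to 3′ on the strand of the gene, with the matches in capitals. Trim63 lies at chr4:134314870-134315169 on the plus strand, Gabarapl1 at chr6:129532942-129533241 on the plus strand, and Klf15 at chr6:90462326-90462625 on the plus strand.
Trim63: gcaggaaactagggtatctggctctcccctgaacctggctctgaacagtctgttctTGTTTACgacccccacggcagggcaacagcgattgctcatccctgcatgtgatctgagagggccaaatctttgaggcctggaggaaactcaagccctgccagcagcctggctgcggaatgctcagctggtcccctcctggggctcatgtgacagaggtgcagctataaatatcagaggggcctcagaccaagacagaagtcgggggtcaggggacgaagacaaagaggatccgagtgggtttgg
Gabarapl1: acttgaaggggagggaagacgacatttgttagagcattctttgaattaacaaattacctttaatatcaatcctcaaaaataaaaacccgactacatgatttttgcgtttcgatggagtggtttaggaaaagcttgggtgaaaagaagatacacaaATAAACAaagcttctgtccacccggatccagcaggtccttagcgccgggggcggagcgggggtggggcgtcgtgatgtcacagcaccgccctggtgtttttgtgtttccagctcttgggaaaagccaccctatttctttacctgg
Klf15: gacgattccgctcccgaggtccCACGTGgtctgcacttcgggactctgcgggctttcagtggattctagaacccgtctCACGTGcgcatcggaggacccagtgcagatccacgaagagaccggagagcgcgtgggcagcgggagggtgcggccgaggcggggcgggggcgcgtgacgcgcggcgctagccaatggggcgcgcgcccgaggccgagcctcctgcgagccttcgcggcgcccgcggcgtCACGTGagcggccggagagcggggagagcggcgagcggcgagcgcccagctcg

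Trim63 held GTAAACA once, on the minus strand (TGTTTAC as printed), with its first printed base at position -194 from the start site. Gabarapl1 held ATAAACA once, at position -95. Klf15 held 3 E-boxes, at positions -228, -172 and -3, and no forkhead motif. No match to any of these letters was found in the windows of Foxo1, Foxo3 and Ddit4. The 32851 mouse promoters of 300 bases set beside them left out those of 1 chromosome. Of these promoters, 3.65% held GTAAACA, 4.60% held ATAAACA and 7.15% held CACGTG, and 7.97% held at least 1 of the forkhead motifs. A match of letters is a description of the sequence and not evidence of binding.

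Total counts ran from 11101901 to 14699949 per library, and no pair of libraries agreed within sampling noise, so each was counted as 1 sample. Nbdy, read as the check of the genotype labels, averaged 9.90 ± 0.411 CPM in KO and 19.4 ± 0.469 CPM in WT (SD, n = 4 each; CPM are counts scaled to library size by TMM). By edgeR's quasi-likelihood test Nbdy fell by 0.97 ± 0.11 (SE) on the log2 scale (adjusted p = 0.0060). Leaving out KO replicate 6 gave an adjusted p of 0.056 in the same test. Nbdy thus stayed at 0.511 of its WT level in KO, with 115 to 137 counts per KO library. Loss of the microprotein cannot be read from these counts. Over all 13336 genes tested, 3 passed an adjusted p of 0.05, which is 0.0225%; without WT replicate 4 there were 6 and without WT replicate 1 there were 5. Mitochondrial transcripts took 23.0 to 26.7% of counts in KO and 19.4 to 29.2% in WT, with WT replicate 1 the highest of all; without it the log2 fold change of Klhl38 was 1.25 and that of Fbxo32 0.64. Markers of the ventricular cardiomyocyte summed to 73300 to 85900 CPM in KO and 70900 to 84300 CPM in WT, with 3 of 10 higher in KO. The atrial light chain Myl7 had at most 2.25 CPM in any library. In such bulk samples, fewer cells of a type and less RNA per cell cannot be told apart.

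Klhl38 and Fbxo32 were higher in each of the 4 KO libraries than in any WT library, whereas the other 7 genes overlapped between genotypes. Over all genes tested, 2.14% had all KO libraries above all WT libraries. None of the 9 genes passed over all genes in the edgeR fit, where 0.0225% of genes did. Klhl38 and Fbxo32 had an unadjusted p under 0.05, which 6.38% of all genes had. Klhl38 alone passed with DESeq2 (0.0825% of genes called), with a robust edgeR fit (0.03%), with no count filter (0.0464%) and at an adjusted p of 0.10 (0.03%). All 9 log2 fold changes were positive, with a median of 0.16, beside a median of -0.0032 and 49.4% positive values over all genes. This direction was not stable for every gene: Foxo1 and Ddit4 each turned negative in 5 of 18 other fits, and Gabarapl1 and Klf15 in 1 each.

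**Figure D1:**
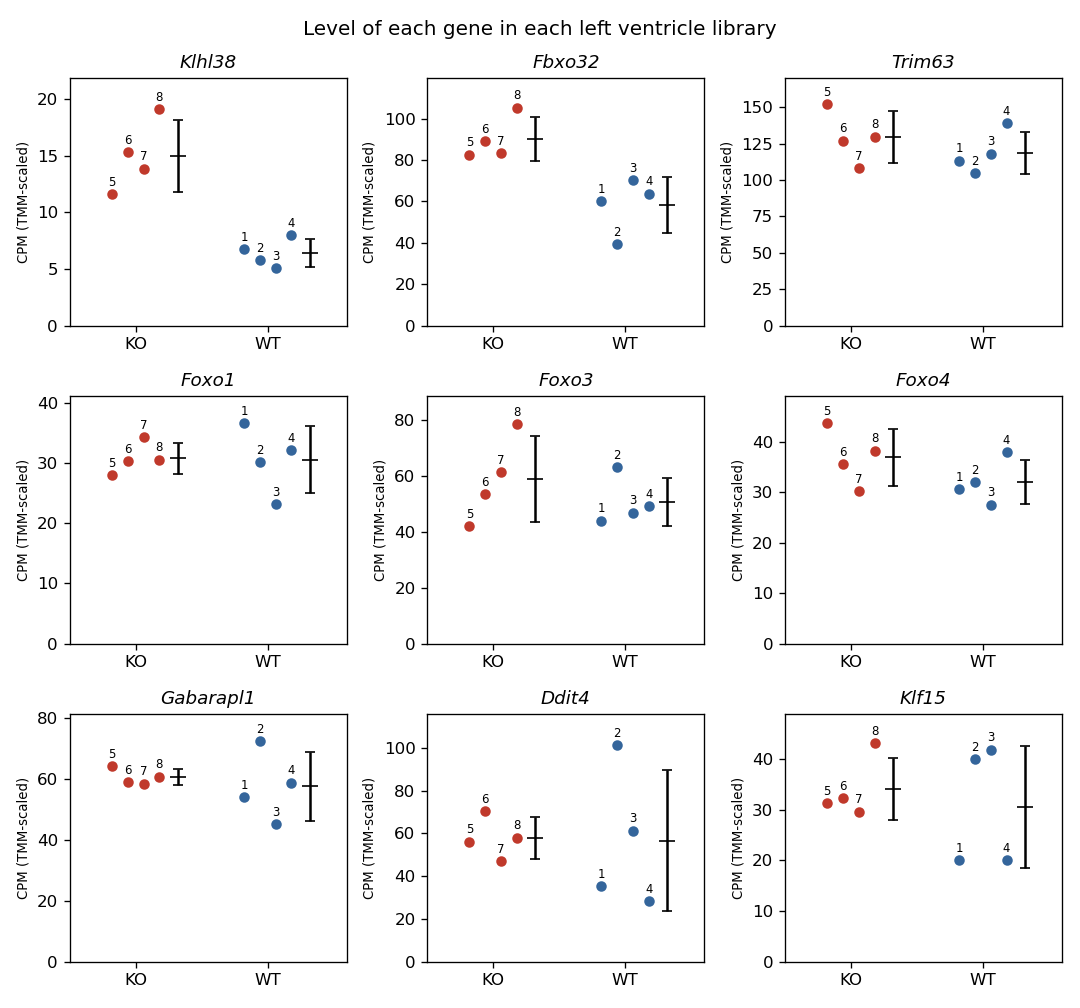
CPM of each of the 9 genes in the 4 KO (left, red) and 4 WT (right, blue) libraries, with the replicate number at each point and the mean ± SD in black; each vertical axis starts at 0. The genotypes are apart for Klhl38 and Fbxo32 and overlap for the other 7 genes.

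The ubiquitin ligase genes come first. Klhl38 encodes a BTB-kelch protein, a family whose members present substrates to the cullin Cul3. Its levels were 11.6, 15.3, 13.9 and 19.1 CPM in KO replicates 5 to 8, against 6.74, 5.80, 5.06 and 7.98 CPM in WT replicates 1 to 4. The lowest KO library stood above the highest WT library, and KO replicate 8 held the most. The counts behind them were 166, 216, 177 and 219 in KO and 84, 63, 62 and 104 in WT. The level was 2.33-fold higher in KO, a log2 fold change of 1.22 ± 0.19 (SE), which was 1.08 when KO replicate 8 was left out and 1.34 when WT replicate 4 was. By unadjusted p Klhl38 stood in place 4 among all genes tested.

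Fbxo32 encodes atrogin-1, an F-box protein that links substrates to the ligase of Skp1, Cul1 and Rbx1. Its levels were 82.6, 89.2, 83.4 and 105.3 CPM in KO replicates 5 to 8, against 60.0, 39.3, 70.4 and 63.7 CPM in WT replicates 1 to 4. KO replicate 8 was again the highest library, and WT replicate 2 was the lowest by a wide margin. The level was 1.54-fold higher in KO; the log2 fold change was 0.63 ± 0.16 (SE), and 0.48 without WT replicate 2. Of all genes tested, 1.64% had a log2 fold change at least as high as that of Fbxo32.

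Trim63 encodes MuRF1, the RING-finger ligase that marks sarcomere proteins for the proteasome. Its levels were 152, 127, 108 and 130 CPM in KO replicates 5 to 8, against 113, 105, 118 and 139 CPM in WT replicates 1 to 4. The genotypes overlapped, although KO replicate 5 lay above every WT library and WT replicate 2 below every KO library. The log2 fold change was 0.12 ± 0.13 (SE), and 0.03 without KO replicate 5, the library with the most Trim63. The ratio of Trim63 to Fbxo32, taken on length-scaled levels, was 3.56 ± 0.672 in KO and 5.16 ± 1.06 in WT (SD, n = 4 each), and the ratio of Klhl38 to Fbxo32 was 0.520 ± 0.0554 in KO and 0.360 ± 0.09996 in WT. The first ratio overlapped between genotypes (3.02 to 4.52 in KO, 4.11 to 6.55 in WT), and so did the second (0.443 to 0.573 in KO, 0.227 to 0.465 in WT). The size of either ratio depends on the gene lengths used. With the longest transcript as length, the KO means were 119 TPM for Trim63 and 22.5 TPM for Fbxo32.

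**Figure D2:**
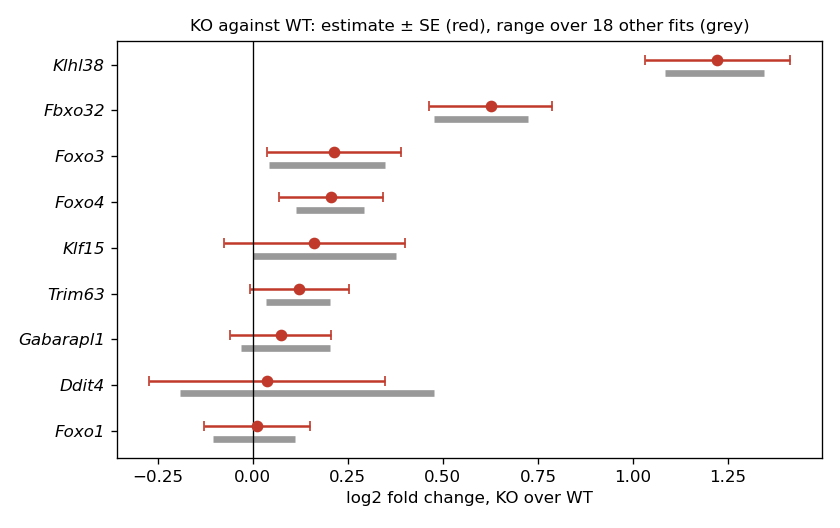
Log2 fold change of KO over WT for each of the 9 genes, with the edgeR estimate ± SE in red and the range over 18 other fits in grey. Klhl38 (1.22) and Fbxo32 (0.63) stay above 0 over their whole ranges, while the ranges of Foxo1, Ddit4, Gabarapl1 and Klf15 reach below 0.

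The FoxO genes differed little between genotypes. Foxo3, the factor tied to both the atrophy ligases and autophagy in muscle, had 42.0, 53.4, 61.3 and 78.5 CPM in KO replicates 5 to 8, against 43.9, 63.1, 46.7 and 49.0 CPM in WT replicates 1 to 4. KO replicate 8 was above all other libraries and KO replicate 5 below all of them. The log2 fold change was 0.21 ± 0.18 (SE), and 0.04 without KO replicate 8.

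Foxo4, a member of the same family on chromosome X, had 43.7, 35.5, 30.2 and 38.2 CPM in KO replicates 5 to 8, against 30.6, 31.9, 27.5 and 37.9 CPM in WT replicates 1 to 4. The ranges overlapped, and the log2 fold change was 0.21 ± 0.14 (SE), and 0.11 without KO replicate 5, the library with the most Foxo4. The gene lies 52.5 Mb from Nbdy on the same chromosome. Foxo1, which acts with insulin signalling in metabolic control, had 28.03, 30.4, 34.3 and 30.6 CPM in KO, against 36.7, 30.2, 23.3 and 32.2 CPM in WT. The KO libraries lay within the WT range, and the log2 fold change was 0.01 ± 0.14 (SE). Leaving out WT replicate 3 gave -0.10, and leaving out WT replicate 1 gave 0.11.

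Summed per length, the 3 FoxO genes had 45.8 ± 4.34 TPM in KO and 42.6 ± 3.96 TPM in WT (SD, n = 4 each; TPM are counts per exon length, scaled to a fixed sum). Foxo4 made up 48.4 ± 7.54% of this sum in KO and 47.3 ± 3.26% in WT, Foxo3 35.2 ± 6.92% in KO and 34.5 ± 4.51% in WT, and Foxo1 16.3 ± 2.15% in KO and 18.2 ± 2.95% in WT. These shares differed by less than the spread between hearts of 1 genotype. Foxo6, the family member known mainly from brain, was at 3.42 ± 1.49 CPM in KO and 3.41 ± 1.52 CPM in WT (SD, n = 4 each).

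Among the fasting and stress responsive genes, the spread lay within genotypes. Gabarapl1 encodes an Atg8-family protein of the autophagosome membrane. Its levels were 64.2, 59.0, 58.5 and 60.8 CPM in KO replicates 5 to 8, against 54.0, 72.5, 45.2 and 58.8 CPM in WT replicates 1 to 4. The KO hearts lay close together inside the wider WT range, and the log2 fold change was 0.07 ± 0.13 (SE).

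Ddit4 encodes REDD1, an inhibitor of the growth kinase complex mTORC1 that is induced by stress and glucocorticoids. Its levels were 56.2, 70.3, 46.9 and 57.9 CPM in KO replicates 5 to 8, against 35.3, 101, 61.3 and 28.2 CPM in WT replicates 1 to 4. WT replicate 2 held the most and WT replicate 4 the least of all libraries. The log2 fold change of 0.04 ± 0.31 (SE) became 0.48 without WT replicate 2 and -0.19 without WT replicate 4. Klf15 encodes a zinc-finger factor that glucocorticoids induce and that controls amino acid and lipid use. It had 31.2, 32.2, 29.6 and 43.2 CPM in KO replicates 5 to 8, against 20.05, 40.0, 41.9 and 20.02 CPM in WT replicates 1 to 4. The WT hearts fell into a pair of high libraries, replicates 2 and 3, and a pair of low ones, replicates 1 and 4, which are also the higher and lower WT pairs for Ddit4. The log2 fold change of Klf15 was 0.16 ± 0.24 (SE), and -0.0007 without WT replicate 4.

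The spread within genotypes set these genes apart from one another. The biological coefficient of variation from the edgeR fit was 0.308 for Ddit4, higher than in 91.9% of the genes tested, and 0.240 for Klf15, higher than in 80.4%. For Klhl38 it was 0.183, for Foxo3 0.183 and for Fbxo32 0.171, above 63.0%, 63.2% and 56.9% of genes. Trim63, Foxo1, Foxo4 and Gabarapl1 lay between 0.144 and 0.147, below the median of 0.160 over all genes.

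On the length-scaled scale the order of the 9 genes was Trim63, Ddit4, Gabarapl1, Klf15, Fbxo32, Foxo4, Foxo3, Klhl38 and Foxo1. Trim63 had a mean of 95.0 TPM in KO and 92.2 TPM in WT, and Foxo1, at the other end, 7.43 TPM in KO and 7.71 TPM in WT. Trim63 exceeded Ddit4 in 7 of 8 libraries, and Ddit4 exceeded Gabarapl1 in 5 of 8, so these neighbours were not apart. Gabarapl1 exceeded Klf15, Foxo4 exceeded Foxo3 and Foxo3 exceeded Klhl38 in 8 of 8 libraries. Klf15, Fbxo32 and Foxo4 were not ordered: Klf15 exceeded Fbxo32 in 3 of 8 libraries and Fbxo32 exceeded Foxo4 in 4 of 8, 3 of them KO. Klhl38 exceeded Foxo1 in 4 of 4 KO libraries and in 0 of 4 WT libraries, with 14.2 TPM in KO and 6.34 TPM in WT. With lengths of the longest transcript instead of all exons, the KO means of Trim63, Fbxo32, Foxo1 and Gabarapl1 were 119, 22.5, 6.18 and 57.9 TPM. Klhl38 then still exceeded Foxo1 in 4 of 4 KO and 0 of 4 WT libraries, although the closest WT library, replicate 4, had 8.03 TPM of Klhl38 and 8.27 TPM of Foxo1 on the scale of all exons. Klf15 then exceeded Fbxo32 in 3 of 4 KO and 2 of 4 WT libraries.

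**Figure D3:**
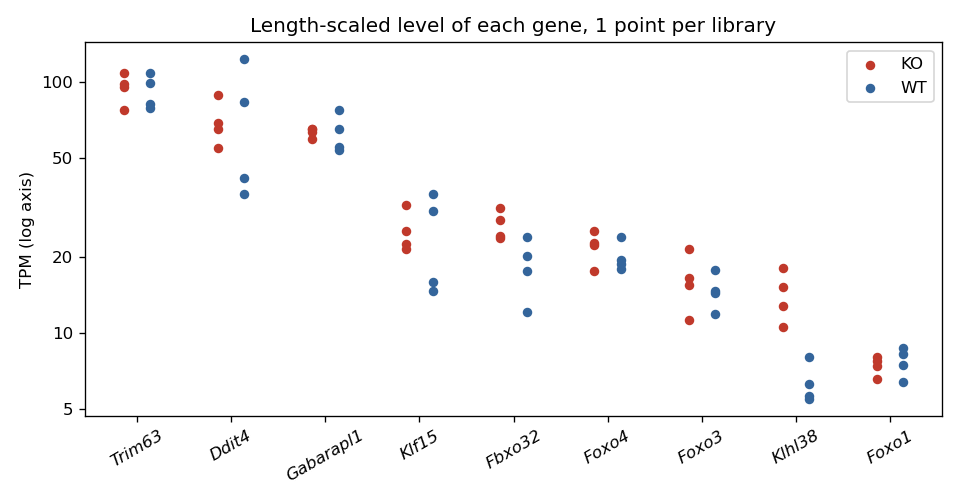
Length-scaled level (TPM, log axis) of the 9 genes, ordered by their mean over all libraries, with 1 point per KO (red, left) and WT (blue, right) library. Klhl38 stands above Foxo1 in 4 of 4 KO libraries and in 0 of 4 WT libraries.

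Klhl38 and Fbxo32 are neighbours. Klhl38 (ENSMUSG00000022357) spans 58314573 to 58324169 and Fbxo32 (ENSMUSG00000022358) spans 58175879 to 58214932 on chromosome 15 in GRCm38, both on the minus strand, with 99.6 kb between them. An antisense RNA on the other strand, Gm15943, overlaps both genes and held 0 to 3 counts per library. In the window that reaches 300 kb past either gene, 8 other genes were tested and none passed. Their log2 fold changes were 0.55 ± 0.40 for Fer1l6, 0.04 ± 0.19 for Tbc1d31, -0.08 ± 0.13 for Fam91a1, -0.13 ± 0.14 for Gm29394, -0.14 ± 0.11 for Derl1, -0.15 ± 0.13 for Wdyhv1, -0.16 ± 0.20 for Atad2 and -0.17 ± 0.13 for Zhx1 (SE). All 8 overlapped between genotypes. The 6 negative values stayed below 0 in each of 18 other fits, with Fam91a1 reaching -0.0023. Fer1l6, a ferlin gene, averaged 1.06 CPM in KO and 0.725 CPM in WT, so its value rests on few counts. Gm29394 and Zhx1 overlap on the same strand, so their reads may be shared. Anxa13, the gene between Klhl38 and Fam91a1, had too few counts to be tested.

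**Figure D4:**
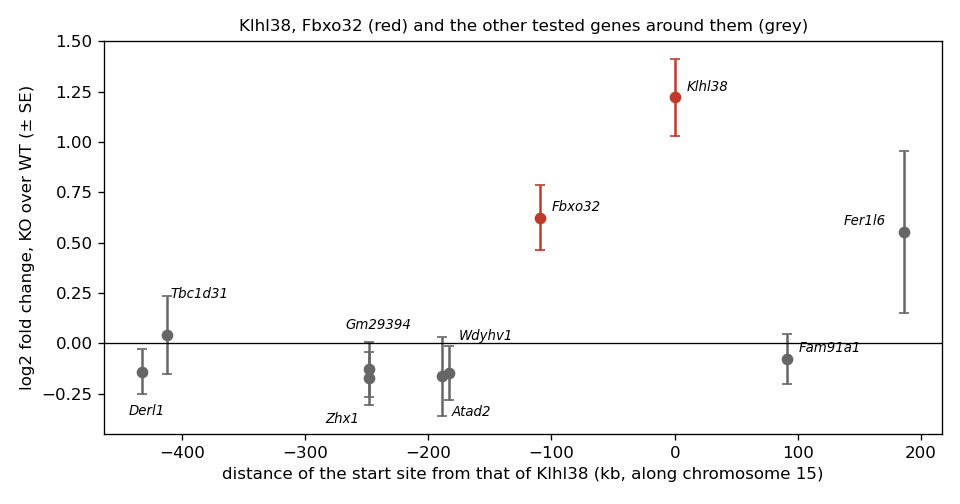
Log2 fold change of KO over WT (± SE) of the 10 tested genes around Klhl38, by the distance of their start sites from that of Klhl38 in kb. Klhl38 and Fbxo32 (red) stand at 1.22 and 0.63, the neighbours on either side between -0.17 and 0.04, and Fer1l6 at 0.55 with an SE of 0.40.

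Within genotypes the measured likeness of the pair was low in these 8 libraries. As a measure of likeness, Pearson's r was taken over the 8 libraries on log2 CPM after the mean of each genotype was removed. The ranking covered 9938 genes with a mean of at least 5 CPM. It left out pseudogenes and genes without a symbol or named only by a Gm number, AC clone or Rik clone. Fbxo32 ranked 2354 by likeness to Klhl38, with r = 0.34. The genes most like Klhl38 were Trak1, Hcfc2, Dnaaf5, Actl6a and Rars2 (r from 0.96 to 0.99), and those most like Fbxo32 were Tle6, Ints9, Zfp943, Zfp961 and Zfp3 (r from 0.96 to 0.98). With 8 points and so many genes ranked, values this high describe these libraries only. The r of 0.34 also rests on 8 points, too few to settle whether Klhl38 and Fbxo32 vary together.

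Klhl38 and Fbxo32 are also expressed in skeletal muscle, so markers of that tissue were read beside them. The 12 markers summed to 2790 to 3220 CPM in KO and 2660 to 3650 CPM in WT, and 3 of 12 had a higher mean in KO; most of the sum was the creatine kinase gene Ckm, which the heart also expresses. The defining fast myosin genes Myh1, Myh2 and Myh4 reached at most 0.160, 0.537 and 1.15 CPM in any library, and Pvalb at most 0.276 CPM. Others of the list were higher, with Mybpc2 up to 35.3 CPM, Tnni2 up to 4.89 CPM and Mylpf up to 1.93 CPM. Atp2a1, Tnnt3, Tnnc2 and Actn3 reached at most 1.1 CPM. The 5 brown fat markers summed to 2310 to 2830 CPM in KO and 1870 to 2990 CPM in WT, nearly all of it Cox7a1 and Cox8b. Cidea reached 35.8 CPM, whereas Ucp1 reached at most 0.0874 CPM and Elovl3 at most 0.16 CPM. The 5 white fat markers summed to 0.769 to 2.53 CPM in KO and 0.816 to 16.2 CPM in WT. Fibroblast markers summed to 839 to 1080 CPM in KO and 1040 to 1310 CPM in WT, with 0 of 6 higher in KO (exact two-sided permutation test, adjusted p = 0.386 over 9 lists). Blood markers summed to 1160 to 2170 CPM in KO and 830 to 1810 CPM in WT, with 6 of 7 higher in KO (exact permutation test, adjusted p = 0.900). The atrial list gave 459 to 715 CPM in KO and 265 to 482 CPM in WT, with 2 of 6 higher in KO (exact permutation test, adjusted p = 0.386), nearly all of it Nppa; its markers Bmp10 and Sln were at 0 and at most 0.561 CPM. Over the 9 marker lists the adjusted p of the exact permutation test ran from 0.386 to 0.971. The part of cell makeup in the values of Klhl38 and Fbxo32 was not tested further.

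The other genes of the pathway were read from 7 lists that share some members, 120 tested genes in all, of which 0 passed in either direction, beside 0.0225% of all genes. Their median log2 fold change was 0.0077, with 63 positive and 57 negative. At no setting tried did any of them pass. In the lists, 5 of the 120 genes had all KO libraries above all WT libraries and 4 had them below, against 2.14% and 1.98% of all genes.

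Upstream of FoxO, the 15 genes of insulin and Akt signalling had a median log2 fold change of -0.06 (6 positive, 9 negative). The 3 with the smallest p did not pass: Akt2, the insulin-responsive Akt kinase of muscle, at 0.30 ± 0.14, the growth factor receptor gene Igf1r at 0.41 ± 0.21 and the catalytic subunit gene Pik3cb at -0.30 ± 0.16 (SE). Igf1r had 4.19 to 5.77 CPM in KO and 2.77 to 3.91 CPM in WT, which do not overlap. Akt2 was at 0.18 after a GC content and length trend was removed.

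The 24 other FoxO targets of muscle had a median of -0.03, with 12 positive and 12 negative. Here the 3 smallest p belonged to the DNA damage gene Gadd45a (-0.36 ± 0.16), the F-box gene Fbxo31 (0.25 ± 0.11) and the autophagy conjugation gene Atg12 (-0.26 ± 0.12, SE), and none passed. Gadd45a was at -0.18 without WT replicate 4, Fbxo31 at 0.099 after a GC content and length trend was removed and Atg12 at -0.16 without WT replicate 2. The list median was 0.05 without WT replicate 2 and -0.10 without WT replicate 1.

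The 16 other muscle ligases and cullin partners had a median of -0.01, with 8 positive and 8 negative, and the 3 with the smallest p did not pass. Rbx1, the RING subunit of the cullin ligases, had 83.7, 84.5, 89.3 and 85.6 CPM in KO replicates 5 to 8, against 92.0, 120, 117 and 97.8 CPM in WT replicates 1 to 4. Skp1a, the adaptor that binds F-box proteins, had 106, 100, 98.3 and 107 CPM in KO, against 119, 136, 114 and 119 CPM in WT. Neither pair of ranges overlapped, and neither gene passed (log2 fold changes of -0.31 ± 0.11 and -0.24 ± 0.10, SE; adjusted p of 0.726 and 0.768 in edgeR). Skp1a stood at -0.13 after a GC content and length trend was removed. Fbxo30, another F-box gene of atrophying muscle, stood at -0.44 ± 0.20 (SE) and at -0.18 without WT replicate 2. The 30 other BTB-kelch genes had a median of -0.05 (15 positive, 15 negative), and the 3 with the smallest p, Klhl7, Klhl23 and Klhl5, stood at -0.40 ± 0.15, -0.27 ± 0.12 and -0.30 ± 0.14 (SE), opposite in sign to Klhl38.

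**Figure D5:**
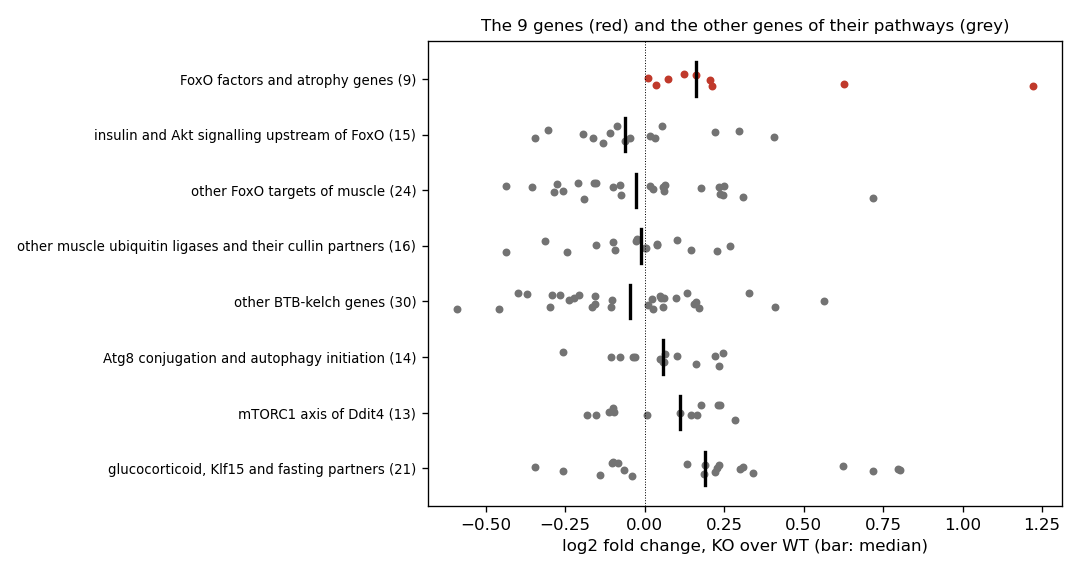
Log2 fold change of KO over WT of the 9 genes (red) and of the tested genes of 7 lists of pathway genes (grey, number of genes in brackets), with black bars at the medians. Klhl38 and Fbxo32 are the 2 red points farthest right; the list medians lie between -0.06 and 0.19.

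Beside Gabarapl1, the 14 genes of Atg8 conjugation and autophagy initiation had a median of 0.06 (9 positive, 5 negative). The kinase gene Ulk1 stood at 0.23 ± 0.13 and the autophagy receptor gene Sqstm1 at 0.25 ± 0.14 (SE); neither passed. Ulk1 was at 0.094 after a GC content and length trend was removed and Sqstm1 at 0.15 without WT replicate 3. Beside Ddit4, the 13 genes of the mTORC1 axis had a median of 0.11 (8 positive, 5 negative), which was 0.03 after a GC content and length trend was removed. Its smallest p belonged to the mTORC1 inhibitor gene Akt1s1 (0.28 ± 0.15), the mTORC1 activator gene Rheb (-0.18 ± 0.10) and the Rheb inhibitor gene Tsc2 (0.18 ± 0.11, SE), and none passed. Akt1s1 was at 0.12 without KO replicate 5 and Tsc2 at 0.052 with the trend removed.

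Beside Klf15, the 21 glucocorticoid and fasting genes had the highest list median, 0.19, with 13 positive and 8 negative. The negative ones included the glucocorticoid receptor gene Nr3c1 (-0.10 ± 0.11), Sgk1 (-0.35 ± 0.22) and Cebpd (-0.26 ± 0.30, SE). Fkbp5 (-0.10 ± 0.59) and Tsc22d3 (-0.08 ± 0.26, SE) were also negative. Zbtb16 (0.80 ± 0.93) and Klf9 (0.13 ± 0.20, SE) were among the 13 positive. The 3 genes with the smallest p were all positive. Per1, a clock gene that glucocorticoids induce, had 117, 118, 135 and 130 CPM in KO replicates 5 to 8, against 88.4, 102, 112 and 92.7 CPM in WT replicates 1 to 4. The ranges did not overlap, and the log2 fold change of 0.34 ± 0.11 (SE) did not pass (adjusted p = 0.711 in edgeR); it was 0.18 after a GC content and length trend was removed. Ucp3, the muscle uncoupling protein gene, stood at 0.80 ± 0.38 and Txnip, a glucose-responsive arrestin gene, at 0.31 ± 0.15 (SE), both with overlapping groups. Ucp3 was at 0.52 without KO replicate 5 and Txnip at 0.18 without KO replicate 8. The list median ran from 0.06 to 0.36 with 1 library left out, and the high end was reached without WT replicate 2.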

How the data were processed

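The authors deposited whole-number read counts that are not normalized, with Ensembl genes in rows and the 8 hearts in columns, which were matched to samples by title. Libraries came from a stranded mRNA kit, per the labels' protocols, and the submitters' processing notes name STAR 2.7.1a and GRCm38 (mm10). How reads were counted, with which strand setting and annotation, is not given in the sources used. Counting without strand would add antisense reads to a gene.

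Of 38293 identifiers, 36429 had a GENCODE M21 symbol. After filterByExpr (minimum count 10) and TMM scaling, genotype was tested alone in edgeR 4.0.16 (quasi-likelihood, two-sided, R 4.3.3), with Benjamini-Hochberg adjustment over 13336 genes. Each SE is the fold change, in log2, over the root of F. The test was tried on simulated counts with known changes. TPM used the union of exons. Marker sums were compared by exact permutation over 70 assignments, whose smallest p is 0.0286. Alternatives used DESeq2 1.42.0, limma 3.58.1 and sva 3.50.0.

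The 9 genes, lists and tests were chosen with earlier results of these data known. The rule for other named genes takes those of each list that pass, or else the 3 with the smallest p, the tested genes within 300 kb of Klhl38 or Fbxo32, and the 5 genes most like each. Anxa13, Gm15943 and Foxo6 were named after their values were seen. So were Nr3c1, Sgk1, Cebpd, Fkbp5, Tsc22d3, Zbtb16 and Klf9.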

Additional observations from a re-analysis of the deposited data

Results flagged for a closer look

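In groups of 4 libraries, a library was singled out where its gap to the next one took up a larger share of the group's range than Dixon's critical value for 4 libraries allows; chance does this in about 1 of 20 groups, and it was found in 5 of the 94 groups checked. KO replicate 8 stood alone with 70.7 CPM of Rheb, 27.2 CPM of Atg12 and 851 CPM of Txnip. KO replicate 6 stood alone with 98.1 CPM of Ulk1. WT replicate 2 stood alone with 16.2 CPM over the white fat markers. The groups checked did not take in every gene of the pathway lists. Zbtb16, which was not among them, had 59.7 CPM in WT replicate 2 and 3.99 to 6.01 CPM in the other WT libraries. For the 9 FoxO and atrophy genes no library passed this limit in either genotype; KO replicate 8 came nearest, with 43.2 CPM of Klf15 where the next KO library had 32.2 CPM.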

How the results depend on the processing

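No paired analysis was made because the labels give no litter, batch or pairing. The replicate numbers (5 to 8 in KO, 1 to 4 in WT) do not say which hearts belong together. The number of genes called over the whole table was 3, against 11 with DESeq2, 10 with no filter and 5 with 1 surrogate variable; with 1 library left out it ran from 2 to 6. Among the 9 genes 0 were called in the main edgeR fit. Klhl38 alone was called with DESeq2, with a robust edgeR fit, with no filter and at an adjusted p of 0.10. Its adjusted p was 2.19e-05, 0.039 and 0.00305 in the first 3 of these. It was 0.0866 in the main edgeR fit, 0.176 with limma-voom and 0.347 in edgeR without KO replicate 8. For Fbxo32 the adjusted p was 0.652 in the main edgeR fit. At an unadjusted p under 0.05, 2 of the 9 genes were found in the edgeR fit. With 1 library left out 0 of the 9 were called. Of the 120 pathway genes 0 were called in any fit.

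The log2 fold change of Foxo1 turned negative with library totals (-0.029), 1 surrogate variable (-0.012) and a GC content and length trend removed (-0.021), and ran from -0.10 to 0.11 with 1 library left out. Ddit4 turned to -0.005 with library totals and -0.035 with the trend removed, and ran from -0.19 to 0.48 with 1 library left out. Gabarapl1 ran from -0.030 to 0.20, Klf15 from -0.0007 to 0.35 and Tbc1d31 from -0.073 to 0.14, and Tbc1d31 also turned with library totals (-0.012) and 1 surrogate variable (-0.016). Klhl38, Fbxo32, Trim63, Foxo3 and Foxo4 stayed positive in all 18 fits.

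No marker difference between KO and WT passed in any setting. With library totals the ventricular difference was -992 CPM and the brown fat difference -73.7 CPM. With 1 library left out the difference of KO minus WT ran from -677 to 3830 CPM for ventricular, -191 to 181 for brown fat, -238 to 93.9 for skeletal muscle, -150 to 46.8 for endothelial and -15.1 to 8.23 for macrophage markers. With 4 against 3 libraries the exact test cannot go below 0.0571, so no list could pass there. With the longest transcript as length, the KO mean moved to 22.5 TPM for Fbxo32, 119 TPM for Trim63, 6.18 TPM for Foxo1 and 57.9 TPM for Gabarapl1. The cause of these shifts was not tested, beyond the lengths used. Depth limits Klhl38, with 62 to 219 counts per library, more than the other 8 genes.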
